A study of Mus musculus with 6 samples.

Results

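The perilipins (Plin1 to Plin5), the CIDE proteins (Cidea, Cideb and Cidec) and 2 proteins that act in the formation of lipid droplets at the endoplasmic reticulum (Fitm2 and Bscl2) were examined in adipocyte cultures with and without Nelfb. These 10 genes were chosen by symbol, and 9 of them had a row among the 17924 genes of the deposited table. Cideb was not analysed here. All 9 had a mean of at least 10 reads over the 6 libraries and were among the 16252 genes tested, although Cidea passed this limit through the CTL libraries alone.

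Nelfb is a subunit of the negative elongation factor, which binds RNA polymerase II shortly after initiation. Fibroblasts from the dorsal dermis of newborn C57BL/6J mice were kept for 14 days in adipocyte differentiation medium, and RNA was sequenced from 3 CTL and 3 Nelfb-/- cultures. Mice of both groups carried Pdgfra-Cre, with Nelfb fl/fl in the Nelfb-/- group and either Nelfb fl/wt or Nelfb wt/wt in CTL. Which of the 2 control genotypes each CTL library had, and whether a library came from 1 animal or from several, is not given in the sources used here. The p-values then measure the spread between these libraries. Pdgfra-Cre recombines only in cells that express or descend from cells that expressed Pdgfra, so that other cells of the dermis keep Nelfb.

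A lipid droplet is a core of triglyceride and sterol ester within a single layer of phospholipid, and it grows out of the membrane of the endoplasmic reticulum. Seipin, the product of Bscl2, and FIT2, the product of Fitm2, act where the droplet emerges. Perilipins coat the droplet and control the access of lipases to it, while CIDE proteins gather where droplets touch and pass lipid from the smaller droplet to the larger. Plin1 and Cidec are typical of the large droplet of white adipocytes, Plin2 and Plin3 are found in most cell types, Plin4 coats small new droplets in white adipocytes, and Plin5 and Cidea are best known from tissues that oxidise fat, such as brown fat and, for Plin5, muscle and heart.

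Expression is reported in CPM (reads scaled to a library total of 1e+06). The 6 libraries held 17.2 M to 29.4 M reads (M, 1e+06), and 3 reads, taken as the floor of detection, were worth 0.102 to 0.175 CPM. Log2 fold changes are Nelfb-/- relative to CTL on a log2(value + 1) scale with 1 unit worth about 1 read, given with the standard error (SE) of limma, and on this scale the change of low genes is understated. A gene was called when its adjusted p was at most 0.05 and its change at least 2-fold. Nelfb itself was at 17.3, 19.6 and 22.3 CPM in replicates 1, 2 and 3 of CTL against 5.50, 3.90 and 5.55 CPM in those of Nelfb-/- cells (log2 fold change -1.99, SE 0.22, limma, adjusted p = 0.0050). CTL replicate 3 and Nelfb-/- replicate 1 stood apart from the other libraries of their groups on the second principal component, which held 27.7% of the variance where the first held 59.9%.

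Plin5 and Cidea were lost almost entirely from Nelfb-/- cells, while Cidec, the most abundant of these genes, was at similar mean levels in both groups. Of the 9 genes, 2 (Plin5 and Cidea) were called, both lower in Nelfb-/- cells, where 11.2% of all genes tested were called, 3.64% lower and 7.58% higher. Bscl2 also passed the adjusted p of 0.05 but changed by less than 2-fold, so that 3 of 9 passed without the limit on the fold, where 15.8% of all genes did, 5.83% of all genes being lower. The 3 CTL and 3 Nelfb-/- values did not overlap at 6 genes, with 5 (Plin1, Plin5, Cidea, Fitm2 and Bscl2) lower and 1 (Plin4) higher in Nelfb-/- cells, where 38.1% of all genes did not overlap, 16.1% of all genes being lower and 22.0% higher. The log2 fold change was negative at 7 and positive at 2 genes, with a median of -0.57 beside 0.068 for all genes tested.

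**Figure D1:**
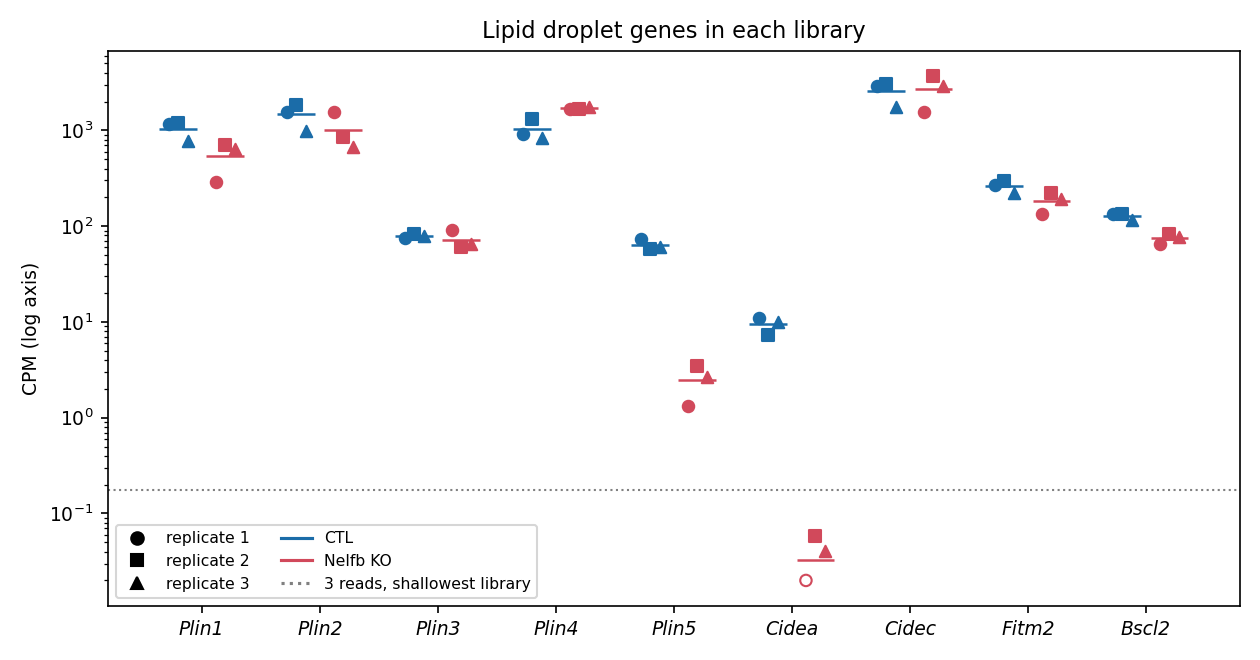
CPM (log axis) of the 9 genes in each of the 3 CTL (blue) and 3 Nelfb-/- (red, KO) libraries, with a symbol for each replicate and a line at each group's mean; the open circle is a value of 0 drawn at the foot of the plot, and the dotted line is the worth of 3 reads in the shallowest library (0.175 CPM). Plin5 was between 57.6 and 73.6 CPM in CTL and between 1.33 and 3.43 CPM in Nelfb-/- cells, Cidea was under the dotted line in all 3 Nelfb-/- libraries, and the values of Cidec overlapped between the groups.

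Plin5 and its neighbour Plin4 had the most negative and the most positive log2 fold change of the perilipins. Both lie on chromosome 17 of GRCm38 on the minus strand, Plin4 (ENSMUSG00000002831) from 56100591 to 56109803 and Plin5 (ENSMUSG00000011305) from 56111601 to 56117596, with 1797 bases between them. The bases upstream of each gene, up to 250 before its RefSeq start (GRCm38.p6), are shown because Plin5 was nearly lost from Nelfb-/- cells while its neighbour of the same family was not. They are written 5′ to 3′ on the minus strand without the part that lies inside the annotated gene, and capitals mark the letters searched for.
Plin5, chr17:56117597-56117798: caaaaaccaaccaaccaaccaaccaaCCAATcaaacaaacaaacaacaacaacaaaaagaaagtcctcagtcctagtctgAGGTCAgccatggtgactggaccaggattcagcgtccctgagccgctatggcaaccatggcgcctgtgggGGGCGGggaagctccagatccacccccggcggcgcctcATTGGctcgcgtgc
Plin4, chr17:56109804-56110032: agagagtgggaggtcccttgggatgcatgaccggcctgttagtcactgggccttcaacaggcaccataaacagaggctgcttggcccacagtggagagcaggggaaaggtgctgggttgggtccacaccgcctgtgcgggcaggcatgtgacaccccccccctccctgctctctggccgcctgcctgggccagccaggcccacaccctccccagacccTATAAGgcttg
The letters searched on both strands were AGGTCA (a half-site of nuclear receptors), AGGTCANAGGTCA (the direct repeat bound by PPAR with RXR, which holds the half-site), CCAAT (the CCAAT box), TATAAA (the TATA box), GGGCGG (the GC box), TTGCNNAA (the C/EBP element) and, added after the sequences were seen, TATAAG. RefSeq listed 2 starts for Plin5, and the upstream one is shown. Over the whole 250 bases, Plin5 held 1 AGGTCA at -170 from its start, CCAAT at -224 and, on the other strand, at -62, 1 GC box at -100 and TATAAG at -27. Before its other start, GC boxes at -239 and -53 were the matches found. Plin4 held TATAAG at -32 and CCAAT on the other strand at -18. Of 32851 RefSeq starts, 14.0% held AGGTCA, 33.8% CCAAT, 32.7% the GC box and 6.65% TATAAG in a window of that length. The direct repeat was found at 0.0335% of the starts and at none of those listed for these genes. The set of RefSeq starts used here held a start for 9 of the 10 genes and none for Cidea.

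Plin5, which coats droplets in contact with mitochondria, was at 73.6, 57.6 and 60.6 CPM in replicates 1, 2 and 3 of CTL against 1.33, 3.43 and 2.65 CPM in those of Nelfb-/- cells, and values of other genes follow in the same order. Every Nelfb-/- library was far below every CTL library, with 28, 59 and 65 reads where the CTL libraries had 1234 to 1783. The mean fell 25.9-fold (log2 fold change -4.76, SE 0.35, limma, adjusted p = 0.0033). Plin5 was called in all 6 fits without 1 library, with log2 fold changes from -5.05 to -4.38.

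Plin4 was at 918, 1324 and 843 CPM in the 3 CTL libraries and at 1688, 1691 and 1755 CPM in the 3 Nelfb-/- libraries. All 3 Nelfb-/- values were above all 3 CTL values and lay within a narrow range, while CTL replicate 2 was higher than the other 2 CTL libraries. The log2 fold change of 0.76 (SE 0.25, limma) missed the threshold with an adjusted p of 0.085. Exons of Plin4 share 17 bases with Hdgfl2 on the other strand, and whether reads were counted by strand is not given in the sources used here. Plin3 lies 159.9 kb from the end of Plin5, and none of the 7 genes tested between them (Lrg1, Sema6b, Tnfaip8l1, Mydgf, Dpp9, Fem1a and Ticam1) was called. Dpp9 passed the adjusted p but not the fold (log2 fold change 0.66, SE 0.17, limma, adjusted p = 0.042), and Tnfaip8l1 passed the fold but not the adjusted p (log2 fold change 2.02, SE 0.60, limma, adjusted p = 0.069), both without overlap and with higher values in Nelfb-/- cells. Lrg1, the next gene tested beyond Plin5, differed little (log2 fold change 0.04, SE 0.19, limma, adjusted p = 0.90).

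Plin1 (ENSMUSG00000030546, chromosome 7 from 79720218 to 79732903), the gatekeeper of hormone-stimulated lipolysis in white adipocytes, was at 1154, 1196 and 782 CPM in CTL against 286, 710 and 634 CPM in Nelfb-/- cells. The groups did not overlap, but Nelfb-/- replicate 1 was far below the other Nelfb-/- libraries and CTL replicate 3 was close to them. Plin1 averaged 1044 ± 228 CPM (SD, n = 3) in CTL against 543 ± 226 CPM without Nelfb, and the difference (log2 fold change -1.02, SE 0.39, limma, adjusted p = 0.12) did not pass the threshold. Without Nelfb-/- replicate 1 the log2 fold change was -0.61.

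Plin2 (ENSMUSG00000028494, chromosome 4 from 86648386 to 86670060), which is bound to droplets in most cells and is degraded when free of them, was at 1557, 1859 and 987 CPM in CTL against 1540, 845 and 671 CPM in Nelfb-/- cells. The groups overlapped, with the 3 highest values in CTL replicates 1 and 2 and Nelfb-/- replicate 1. The log2 fold change of -0.57 (SE 0.40, limma) had an adjusted p of 0.37, and with 1 library left out it lay between -0.91 (without Nelfb-/- replicate 1) and -0.31 (without Nelfb-/- replicate 3), with adjusted p-values from 0.11 to 0.73. Without CTL replicate 3 and Nelfb-/- replicate 1, a choice made after the values were seen, it was -1.18 with an adjusted p of 0.0014 in limma, and Plin2 was then called, in a fit that called 27.0% of all genes. In that fit Plin1, Plin3, Plin4 and Fitm2 also passed the adjusted p but not the fold, so that 8 of the 9 genes passed it, as did 57.8% of all genes.

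Plin3 (ENSMUSG00000024197, chromosome 17 from 56277476 to 56292873), which is soluble in the cytosol and moves to droplets as they form, was at 75.7, 83.1 and 78.8 CPM in CTL against 91.0, 61.2 and 65.3 CPM in Nelfb-/- cells. The Nelfb-/- libraries lay on both sides of the CTL values, and the difference was small (log2 fold change -0.15, SE 0.18, limma, adjusted p = 0.61), with a 95% interval from -0.57 to 0.28. A 2-fold change of Plin3 in either direction was outside this interval.

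The other perilipins were also set against Plin3 within each library, as Plin3 varied least between the CTL libraries. It varied more between the Nelfb-/- libraries (SD 16.2 CPM against 3.72 CPM in CTL, n = 3). Its highest value was in Nelfb-/- replicate 1, which lowers the ratios of that library. The log2 ratio of Plin5 to Plin3 was -0.04, -0.53 and -0.38 in CTL and -6.05, -4.14 and -4.60 in Nelfb-/- cells, and that of Plin4 to Plin3 was 3.60, 3.99 and 3.42 in CTL and 4.21, 4.79 and 4.75 in Nelfb-/- cells. Neither ratio overlapped between the groups, with a difference of -4.61 for Plin5 and 0.91 for Plin4 (exact two-sided permutation test over 6 libraries, p = 0.1 for both, the smallest that 3 against 3 allows, and 0.25 after adjustment over 5 ratios). The ratios of Plin1 (difference -0.87, exact permutation p = 0.2, adjusted 0.25) and Plin2 (difference -0.42, exact permutation p = 0.3, adjusted 0.3) to Plin3 overlapped between the groups. None of the 5 ratios passed the adjustment, which this number of libraries cannot reach.

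Per kb of exon, Plin2 was the leading perilipin in CTL and Plin4 in Nelfb-/- cells on average. Plin2 made up 47.4% ± 3.33 (SD, n = 3) of the summed perilipin CPM per kb in CTL, followed by Plin1 with 25.9% ± 1.64, Plin4 with 20.6% ± 2.66, Plin5 with 3.66% ± 0.98 and Plin3 with 2.50% ± 0.64. In Nelfb-/- cells Plin4 made up 41.4% ± 5.49, Plin2 39.1% ± 12.9, Plin1 16.7% ± 7.98, Plin3 2.63% ± 0.32 and Plin5 0.17% ± 0.081. Plin4 and Plin2 in Nelfb-/- cells did not differ in this order beyond their spread. Plin5 was above Plin3 in each of the 3 CTL libraries although their ranges overlapped. The sum of the 5 perilipins was 872 ± 212 CPM per kb in CTL and 723 ± 85.3 CPM per kb in Nelfb-/- cells and overlapped between the groups. With the length of the longest transcript in place of all exons, Plin2 led in Nelfb-/- cells as well, with 49.8% against 28.8% for Plin4.

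**Figure D2:**
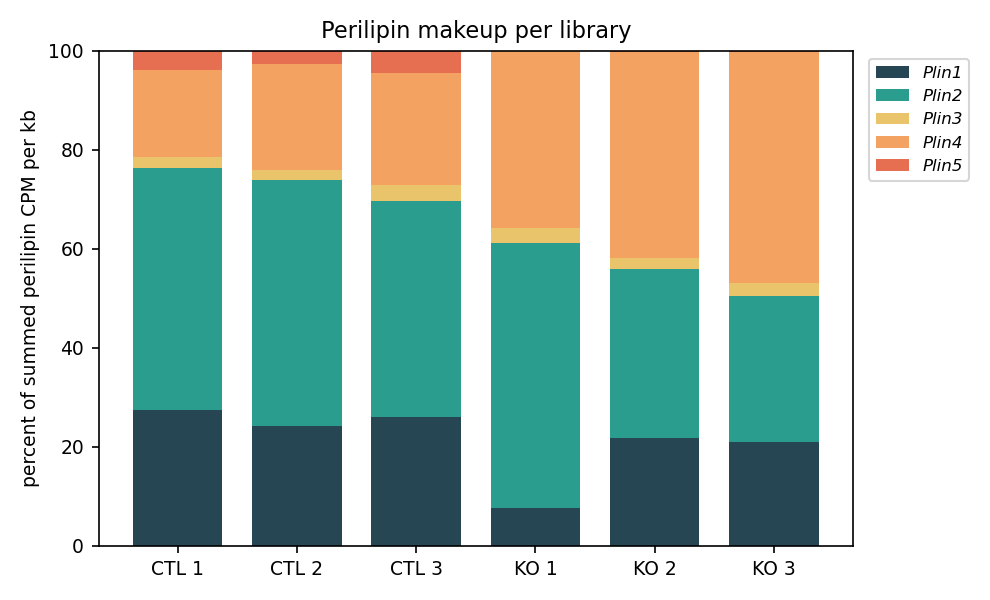
Percent of the summed perilipin CPM per kb of exon (y axis) taken by each of the 5 perilipins in the 3 CTL and 3 Nelfb-/- (KO) libraries. Plin4 made up 17.5% to 22.6% in CTL and 35.8% to 46.7% in Nelfb-/- cells, Plin5 made up 2.59% to 4.50% in CTL and at most 0.23% in Nelfb-/- cells, and Nelfb-/- replicate 1 stood apart with 7.53% Plin1 and 53.7% Plin2.

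Cidea (ENSMUSG00000024526, chromosome 18 from 67343604 to 67367785), a droplet fusion protein of brown adipocytes, was at 10.96, 7.23 and 10.03 CPM in CTL, which is 243, 155 and 295 reads. It had 0 reads in Nelfb-/- replicate 1 and 1 read in each of replicates 2 and 3. All 3 Nelfb-/- libraries were under the floor of 3 reads, and Cidea was at least 64.2-fold lower in Nelfb-/- cells when they are set to that floor in each library. The adjusted p of 0.0028 from limma belongs to the fit on the log2(value + 1) scale and not to this bound. Cidea was called in each of the 6 fits without 1 library. The nearest tested genes on either side of Cidea, Impa2 and Tubb6, were not called, with log2 fold changes of -0.70 and 1.18 and adjusted p-values of 0.48 and 0.28 in limma.

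Cidec (ENSMUSG00000030278, chromosome 6 from 113424634 to 113435760), which drives the growth of the large droplet of white adipocytes, was at 2942, 3067 and 1764 CPM in CTL against 1560, 3700 and 2930 CPM in Nelfb-/- cells. The lowest value of each group was that of a library that stood apart, CTL replicate 3 and Nelfb-/- replicate 1, and the groups overlapped fully. The difference was near 0 (log2 fold change 0.03, SE 0.43, limma, adjusted p = 0.97), with a 95% interval from -0.999 to 1.06, and its sign turned with the scaling and with the library left out. A change of up to about 2-fold in either direction was not detectable for Cidec with this spread. Per kb of exon, Cidec was at 1396 ± 388 CPM (SD, n = 3) in CTL against 1471 ± 584 CPM without Nelfb, above Plin2, the next of the 9 genes in CTL, at 418 ± 126 CPM.

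**Figure D3:**
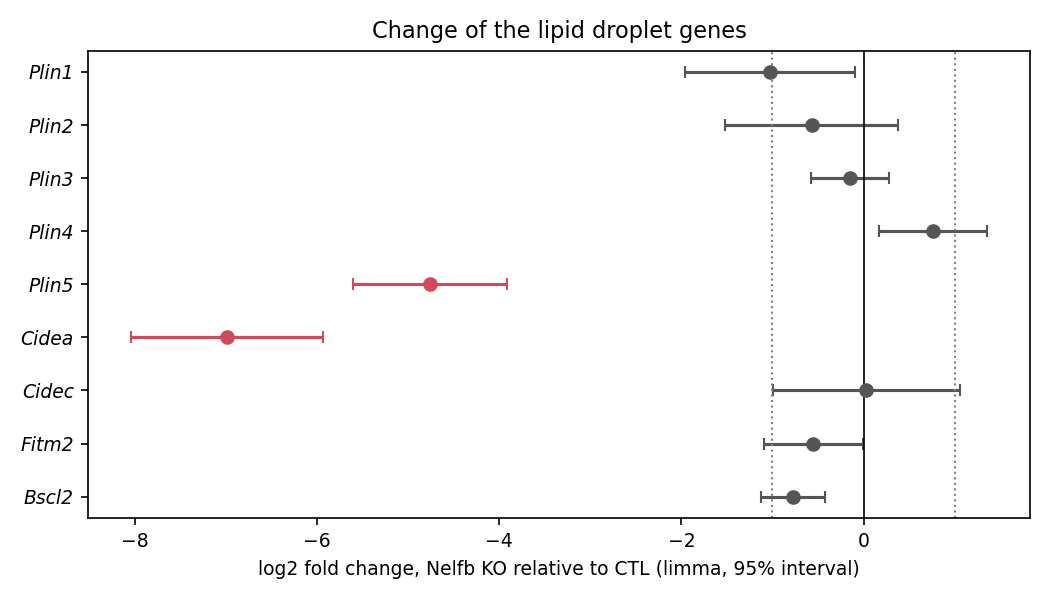
Log2 fold change of the 9 genes in Nelfb-/- (KO) relative to CTL cells on the log2(value + 1) scale (points) with the 95% interval from limma (bars), in red where a gene was called; the dotted lines mark a 2-fold change. Plin5 and Cidea lay beyond -3.9 over their whole interval, Bscl2 was between -1.13 and -0.42, and the intervals of Plin2, Plin3 and Cidec held 0. The point of Cidea is a fitted value for a gene at the floor and is no bound on its fold.

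Bscl2 and Fitm2, which act where droplets leave the endoplasmic reticulum, were both lower in each Nelfb-/- library than in any CTL library. Bscl2 (ENSMUSG00000071657, chromosome 19 from 8837467 to 8848683), the seipin gene whose loss causes generalised lipodystrophy, was at 135, 134 and 116 CPM in CTL against 65.0, 83.2 and 77.9 CPM in Nelfb-/- cells. The values within each group were close to each other, and the mean of Nelfb-/- cells was 58.7% of that of CTL (log2 fold change -0.77, SE 0.15, limma, adjusted p = 0.019). The adjusted p rose to between 0.083 and 0.085 when CTL replicate 1, CTL replicate 2 or Nelfb-/- replicate 3 was left out, while the log2 fold change stayed between -0.85 and -0.67 over all 6 fits without 1 library. Exons of Bscl2 share 398 bases with Gng3 on the other strand and 239 bases with AC129217.1 on the same strand, so that reads of these genes may be counted with it.

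Fitm2 (ENSMUSG00000048486, chromosome 2 from 163466379 to 163472629), an enzyme of the endoplasmic reticulum that lipid droplets need to bud, was at 271, 299 and 223 CPM in CTL against 134, 221 and 194 CPM in Nelfb-/- cells. The highest Nelfb-/- value was just under the lowest CTL value. The difference (log2 fold change -0.55, SE 0.23, limma, adjusted p = 0.15) did not pass the threshold, and 227 bases of its exon are shared with the antisense transcript 2310001K24Rik. The log2 ratio of Fitm2 to Bscl2 was 1.03 ± 0.11 (SD, n = 3) in CTL and 1.25 ± 0.19 in Nelfb-/- cells, with overlapping values (difference 0.22, exact permutation p = 0.2, adjusted 0.25).

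The genes most like Plin1, Plin5 and Cidec over the 6 libraries were sought among 14739 genes with at least 1 CPM, by the root mean square difference of their log2 values after each gene was centred on its own mean. Plin1 was closest to Miga2 (0.092), Fabp4 (0.12), the fatty acid binding protein of adipocytes, and Palmd (0.18). Arxes2 (0.085) and Acsl1 (0.094), a long-chain acyl-CoA synthetase, were among the 3 genes closest to Cidec. The nearest to Plin5 were Aqp5 (0.52), Gm9899 (0.54) and Reep6 (0.57), all 3 of them called lower in Nelfb-/- cells, which follows from their choice by likeness to Plin5. Aqp5 and Gm9899 averaged 0.284 and 0.067 CPM in Nelfb-/- cells and passed the limit of 10 reads through the CTL libraries alone. The distance is not scaled by the size of a change or by counting error, so that the values for Plin5 cannot be compared with those for Plin1 and Cidec. These distances rest on 6 libraries and describe them only.

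Lists of other genes of lipid droplet biology were also examined. Of all genes tested, 11.2% were called (3.64% lower and 7.58% higher). Of 14 other genes of droplet formation tested (the promethin gene Tmem159, Adig, Dgat1, Dgat2, Agpat2, Lpin1, Gpat4, Pcyt1a, Spast, Atl3, Snx14, Rab3gap1, Rab3gap2 and Mctp2), 3 were called lower and 1 higher, with 10 not called and a median log2 fold change of -0.35. Tmem159, the partner of seipin, was at 37.0, 43.0 and 30.8 CPM in CTL against 20.6, 14.5 and 16.97 CPM in Nelfb-/- cells (log2 fold change -1.09, SE 0.20, limma, adjusted p = 0.017). Adig, a small adipocyte protein that binds seipin, was at 98.8, 131 and 74.1 CPM in CTL against 40.0, 34.5 and 27.5 CPM in Nelfb-/- cells (log2 fold change -1.55, SE 0.25, limma, adjusted p = 0.012). Neither overlapped between the groups, and both fell further than Bscl2 in log2 fold change, a difference that was not tested.

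Lpin1, the phosphatidate phosphatase that makes diacylglycerol, was at 709, 740 and 384 CPM in CTL against 303, 193 and 177 CPM in Nelfb-/- cells (log2 fold change -1.43, SE 0.33, limma, adjusted p = 0.034). Mctp2, a membrane protein of the endoplasmic reticulum, was the gene called higher, at 0.95, 0.42 and 0.41 CPM in CTL against 6.21, 3.03 and 4.45 CPM in Nelfb-/- cells (log2 fold change 2.90, SE 0.45, limma, adjusted p = 0.011). Dgat1 and Dgat2, which complete triglyceride synthesis, had log2 fold changes of -0.70 and -0.60 with adjusted p-values of 0.25 and 0.37 in limma, and both overlapped between the groups. Agpat2, which makes phosphatidate and whose loss causes generalised lipodystrophy as that of Bscl2 does, was lower in every Nelfb-/- library (1087, 889 and 835 CPM in CTL against 217, 717 and 594 CPM) but spread too widely to pass the threshold (log2 fold change -1.04, SE 0.45, limma, adjusted p = 0.17).

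Of 7 genes that act in lipolysis at the droplet (Pnpla2, Lipe, Mgll, Abhd5, G0s2, Hilpda and Pnpla3), 1 was called, and it was lower. Of all genes tested, 11.2% were called in either direction and 3.64% were called lower. A single call among 7 genes is too few to compare with either share. The median log2 fold change of the list was -0.79. Pnpla3, a droplet lipase and acyltransferase, averaged 23.9 ± 3.78 CPM (SD, n = 3) in CTL against 8.83 ± 2.35 CPM without Nelfb and did not overlap between the groups (log2 fold change -1.45, SE 0.24, limma, adjusted p = 0.013). Pnpla2, the main triglyceride lipase of adipocytes, overlapped between the groups with 3298, 3628 and 1264 CPM in CTL against 1617, 1411 and 1275 CPM in Nelfb-/- cells (log2 fold change -0.79, SE 0.44, limma, adjusted p = 0.27). G0s2, an inhibitor of Pnpla2, was at 388, 380 and 596 CPM in CTL against 42.8, 259 and 193 CPM in Nelfb-/- cells and did not pass the threshold either (log2 fold change -1.79, SE 0.66, limma, adjusted p = 0.12). The activator of Pnpla2, Abhd5, which Plin1 holds in the resting cell, was at 317, 289 and 277 CPM in CTL against 315, 511 and 404 CPM in Nelfb-/- cells and was not called.

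Of 14 other droplet surface proteins tested, 1 was called, and it was higher. This share is no larger than the 7.58% of all genes called higher. The list had a median log2 fold change of 0.07. It was Lpcat1, which makes phosphatidylcholine, with 7.35, 6.07 and 11.3 CPM in CTL against 13.4, 21.8 and 20.4 CPM in Nelfb-/- cells (log2 fold change 1.18, SE 0.30, limma, adjusted p = 0.045). Mettl7a1, also a protein of the droplet, had a larger log2 fold change of -2.53 (SE 0.78, limma) but an adjusted p of 0.075 and overlapped between the groups. Nsdhl, an enzyme of cholesterol synthesis, and Acsl3, an acyl-CoA synthetase of young droplets, did not overlap between the groups and did not pass the threshold, with log2 fold changes of -0.87 and 0.65 and adjusted p-values of 0.083 and 0.10 in limma.

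Of 15 transcription factors and coactivators that act on droplet and fat oxidation genes, 2 were called, both lower. Among all genes 11.2% were called, and 3.64% lower. The median over the list was -0.51 on the log2 scale. Klf15 was at 95.3, 106 and 74.1 CPM in CTL against 53.5, 28.5 and 24.2 CPM in Nelfb-/- cells (log2 fold change -1.45, SE 0.32, limma, adjusted p = 0.029). Ppargc1b, a coactivator of genes of fat oxidation, was at 20.2, 19.2 and 23.6 CPM in CTL against 9.01, 11.6 and 9.63 CPM in Nelfb-/- cells (log2 fold change -1.06, SE 0.17, limma, adjusted p = 0.013). Pparg, which drives Plin1 and Cidec in adipocytes, was at 158, 150 and 112 CPM in CTL against 98.5, 110 and 85.2 CPM in Nelfb-/- cells, without overlap but not past the threshold (log2 fold change -0.51, SE 0.18, limma, adjusted p = 0.11). Ppara, a receptor that acts on Plin5 in tissues that oxidise fat, missed the threshold (log2 fold change -1.10, SE 0.32, limma, adjusted p = 0.067). Ebf2, a factor of brown adipocyte identity, had a log2 fold change of -1.21, with overlapping groups and an adjusted p of 0.12 in limma.

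**Figure D4:**
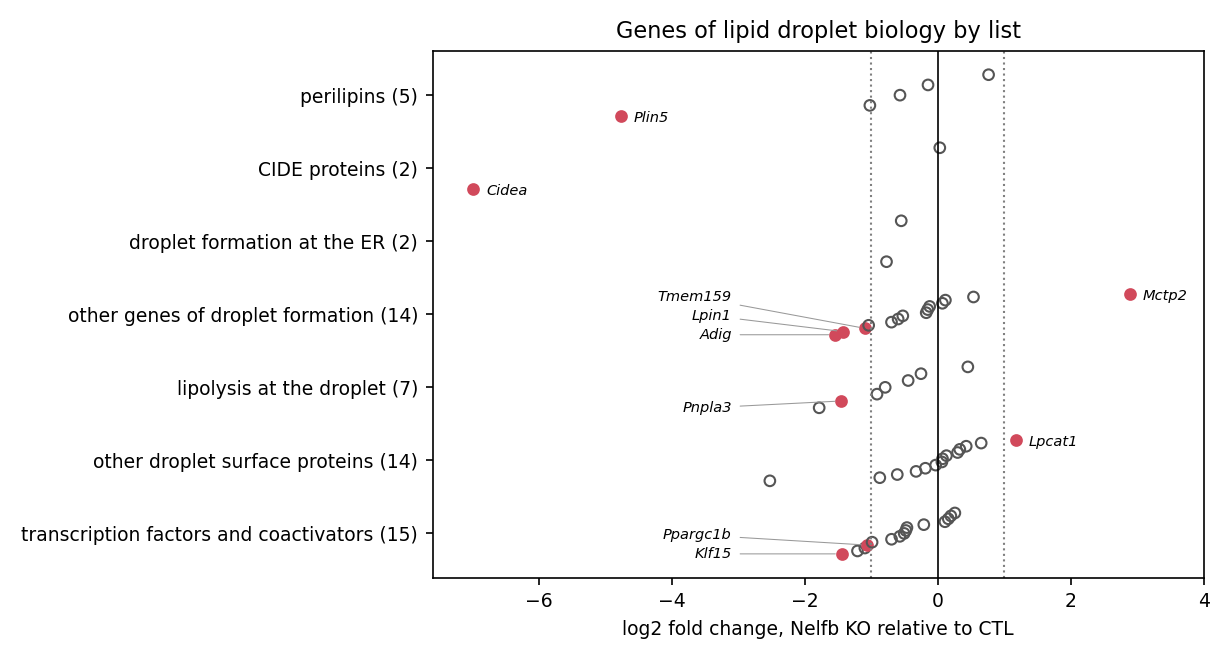
Log2 fold change in Nelfb-/- (KO) relative to CTL cells (x axis, log2(value + 1) scale, dotted lines at 2-fold) of each tested gene of 7 lists of lipid droplet biology, with the number tested in brackets and the height within a list serving only to set the genes apart; called genes are filled and named. Plin5 and Cidea, at -4.76 and at the fitted value of a gene at the floor, lay far to the left of all other genes shown, and Mctp2 at 2.90 lay farthest to the right.

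Markers of cell types were examined as well, beside 11.2% of all genes tested that were called, 3.64% lower and 7.58% higher. Of 5 brown adipocyte markers tested, 3 (Cox8b, Cox7a1 and Cpt1b) were called, all lower, with Cox8b passing the filter on low values through the CTL libraries alone, while Elovl3 (log2 fold change -3.02, limma, adjusted p = 0.087) and Dio2 (1.25, adjusted p = 0.15) did not pass. Ucp1 was not analysed here, and the summed level of the list was 49.2 to 119 CPM in CTL and 5.84 to 18.7 CPM in Nelfb-/- cells. Of 10 adipocyte markers, 3 (Retn, Slc2a4 and Pck1) were called lower and 1 (Lep) higher, with a sum of 24237 to 40135 CPM in CTL and 15914 to 23305 CPM in Nelfb-/- cells, so that the cultures of both groups held adipocyte transcripts. Of 9 preadipocyte and fibroblast markers tested, 2 (Dlk1 and Dpp4) were called, both higher, with sums of 2626 to 11940 and 6413 to 25711 CPM, and of 9 macrophage markers, 8 were called, all higher, with sums of 215 to 786 and 2121 to 6648 CPM. In a bulk culture, fewer adipocytes and less RNA of a gene per adipocyte cannot be told apart, and the part of these cell types in the values of Plin5, Cidea, Bscl2 and the other droplet genes was not tested.

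Markers of other cells of the skin were examined in lists so short that a single call cannot be compared with the share of all genes tested. That share was 7.58% called higher and 3.64% called lower. Of the tested markers, 4 of 5 for skeletal muscle, 5 of 5 for melanocytes, 2 of 4 for Schwann cells, 1 of 3 for keratinocytes and 1 of 5 for endothelium were called higher, and 1 for Schwann cells (Mbp) was called lower. Of these calls, Myog, Actc1, Tyrp1, Tyr, Dct, Mlana, Krt14 and Emcn averaged under 10 reads in CTL. They passed the filter on low values through the Nelfb-/- libraries alone, so that a call in the other direction was not possible for them. The summed level was 4.76 to 8.61 CPM in CTL and 28.7 to 65.7 CPM in Nelfb-/- cells for muscle, and 1.22 to 1.43 CPM in CTL and 30.3 to 72.1 CPM in Nelfb-/- cells for melanocytes. The sums of the other lists were 46.9 to 58.1 and 90.3 to 115 CPM (Schwann cells), 1.89 to 2.45 and 3.46 to 12.8 CPM (keratinocytes) and 6.70 to 10.4 and 7.63 to 21.3 CPM (endothelium), which overlapped. Their part in the results above was not tested.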

How the data were processed

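RNA was sequenced from 3 CTL and 3 Nelfb-/- cultures (NovaSeq). The submitters' processing notes name STAR (2.7), Partek (9.0.20.0202) and the mm10 build, and the paper's methods name DESeq2 for the alignment, a minimum of 10 reads and an ANOVA in Partek. The counting and its use of strand are not given in the sources used here. The values deposited by the authors are CPM with an offset of 0.0001 on each, without which every column adds up to 1e+06.

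The lowest step of each library was read as 1 read, which gave its depth (17.2 M to 29.4 M). Of values under 20 reads, 69.5% to 72.1% came out whole (within 0.02 reads), too few for a count-based test. Values were multiplied by the geometric mean depth (22.3 M) and compared by limma (3.58.1, R 4.3.3) on log2(value + 1) with an abundance trend. All 16252 genes whose mean reached 10 reads entered the fit and the Benjamini-Hochberg adjustment. The test was checked on simulated data. Where no library of a group exceeded 3 reads, the fold was computed against the worth of 3 reads, averaged over that group. Depth limits low values, and the floor covers counting error only.

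Log2 ratios between members used an exact permutation test, and the planned ratio of Cidec to Cideb could not be run, so that 5 ratios remained. Positions, exon lengths and IDs are from GENCODE M21 (GRCm38), to which 17551 of the 17924 genes were matched by name; 98.9% of them had the same start and an end 1 base short of that in the table. Upstream sequences are from RefSeq. Whether the replicate numbers pair the libraries is not given in the sources used here, and the main fit used no pairing.

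The members, the gene lists and the alternatives were chosen with earlier results of these data known. Named genes are the members, the called genes of the lists, Nelfb, up to 4 others per list of droplet biology with the largest change, the neighbours of called members, the 3 genes most like Plin1, Plin5 and Cidec (of which 1 is not reported here), and, named after their values were seen, Abhd5 and Pparg.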

Additional observations from a re-analysis of the deposited data

How the results depend on the processing

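Plin5, Cidea and Nelfb were called under all 11 planned settings of scaling, pseudocount, filter, variance and weights and in each of the 6 fits without 1 library. The number of the 9 genes called was 2 throughout, except that Plin2 was called as well, which made 3, with weights per library (log2 fold change -1.25, limma, adjusted p = 0.00016) and without CTL replicate 3 and Nelfb-/- replicate 1 together, which was added after the data were seen. With these 2 settings 8 of the 9 genes passed the adjusted p, where 73.7% and 57.8% of all genes did. The estimate of the weights did not converge and put 38.8 on Nelfb-/- replicate 3 against 0.13 on each of CTL replicate 3 and Nelfb-/- replicate 1.

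The count of all genes called was 1824, and it was 4513 with these weights, 4383 without those 2 libraries, and 426 (without Nelfb-/- replicate 3) to 2479 (without CTL replicate 3) with 1 library left out; the cause was not tested, beyond the fewer libraries in the fit. Quantile normalization moved the split of higher against lower calls from 1232 and 592 to 1014 and 834. Cidec had a log2 fold change of -0.037 with median-of-ratios scaling, -0.040 with upper-quartile scaling and -0.023 with quantile normalization, -0.23 without CTL replicate 3, -0.23 without Nelfb-/- replicate 2 -0.067 without Nelfb-/- replicate 3 and at most 0.39 (without Nelfb-/- replicate 1).

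With the length of the longest transcript in place of all exons, the percent of the summed perilipin level was 55.8% for Plin2, 1.65% for Plin3, 13.1% for Plin4 and 2.44% for Plin5 in CTL, and 1.89% for Plin3 and 28.8% for Plin4 in Nelfb-/- cells. As a replicate block, the replicate number left 2 of the 9 genes called and 2175 of all genes. Deviations from the group means correlated at 0.52, -0.40 and 0.52 between libraries with the same number. With so few libraries, of which CTL replicate 3 and Nelfb-/- replicate 1 stood apart, these values cannot tell whether the libraries were paired.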
